A study of Homo sapiens with 70 samples.

Results

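Genes named LINC followed by a number, the systematic symbol given to long intergenic noncoding RNAs that have no functional name, are described here in 2 liver cancer cell lines treated with an agonist of the liver X receptors (LXR), a kinase inhibitor or both. The members were all genes whose symbol starts with LINC and digits, each read on the transcript that the authors marked as representative. There were 83 such genes among 20090 (0.413%), and no measured value entered this rule. Cells of the established liver carcinoma lines Hep3B and Huh7, both human, were treated for 24 h with both drugs, with 2 µM sorafenib, with 5 µM GW3965 or with the solvent DMSO, each drug at the same dose in the combination. Sorafenib blocks RAF kinases and several receptor tyrosine kinases, and GW3965 is a synthetic LXR agonist; these nuclear receptors activate genes of sterol export and of fatty acid synthesis. Poly-A RNA was sequenced in 70 libraries. Every Hep3B group had 9, as did Huh7 with the combination and Huh7 labelled sorafenib, while Huh7 labelled GW3965 and Huh7 with DMSO had 8. The deposited values are the authors' edgeR tables, 1 for each drug arm against DMSO of the same line, with a mean level in log2 CPM (read counts scaled to a common library size), a log2 fold change (drug over DMSO), a p-value and a false discovery rate (FDR) per transcript. No single-library values were used, so depth and spread between replicates are unknown. Nothing in the labels tells separate cultures from repeat libraries of 1 culture, so the p-values may measure technical spread. Each approximate SE below was computed from the fold change and its p-value.

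Long noncoding RNAs are transcribed by RNA polymerase II, usually capped, spliced and polyadenylated like messenger RNA, and often present at few copies per cell. Some act on the gene beside them, some bind chromatin, proteins or microRNAs elsewhere, and for many no role is known. A LINC symbol is provisional: it is replaced when a function, a host role for small RNAs or a translated small protein is found. Of the 83 members, 11 are protein-coding genes in the present RefSeq annotation, and 4 of these were expressed here. LINC00493 is now SMIM26 and LINC00116 is now MTLN (mitoregulin), both genes of small mitochondrial proteins. LINC00341 lies in what is now annotated as SYNE3 (nesprin-3, a protein of the nuclear envelope), and LINC00094 is now BRD3OS, on the opposite strand of BRD3. LINC00152 is CYTOR, a cytoplasmic RNA that is raised in many tumours, LINC00263 is OLMALINC, which lies beside the fatty acid desaturase gene SCD, and LINC00338 is SNHG20, a host gene of small nucleolar RNA. LINC00261 is an RNA of endoderm and of organs derived from it, beside the gene of the liver transcription factor FOXA2.

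The promoter sequences of 6 of the members with called changes with both drugs are shown. LINC00339, LINC00152 and LINC00493 rose in both lines and LINC00261 fell in both lines. LINC00263 and LINC00116 rose in Hep3B with a difference between the lines that passed the test. LINC00341 and LINC00338 (in Hep3B) and LINC00294 and LINC00265 (in Huh7) were also called with both drugs, but their sequences are not printed. The sequences run 5′ to 3′ from 250 bases before to 50 bases after the annotated gene start, from RefSeq on GRCh38.p14, and capitals mark matches to the motifs searched.
LINC00339 (chr1:22024941-22025240, plus strand): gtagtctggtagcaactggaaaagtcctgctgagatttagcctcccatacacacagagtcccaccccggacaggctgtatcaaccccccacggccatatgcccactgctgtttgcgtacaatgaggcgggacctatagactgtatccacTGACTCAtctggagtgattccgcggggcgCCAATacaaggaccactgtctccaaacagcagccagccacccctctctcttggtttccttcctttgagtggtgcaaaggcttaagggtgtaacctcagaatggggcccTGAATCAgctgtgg
LINC00152, now CYTOR (chr2:87455177-87455476, plus strand): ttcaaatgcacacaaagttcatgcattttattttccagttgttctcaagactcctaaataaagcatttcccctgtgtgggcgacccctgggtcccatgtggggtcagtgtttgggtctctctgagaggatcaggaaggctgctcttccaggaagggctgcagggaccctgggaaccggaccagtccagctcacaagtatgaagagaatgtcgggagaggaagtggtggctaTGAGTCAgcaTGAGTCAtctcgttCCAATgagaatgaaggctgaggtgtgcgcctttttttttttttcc
LINC00493, now SMIM26 (chr20:18567182-18567481, plus strand): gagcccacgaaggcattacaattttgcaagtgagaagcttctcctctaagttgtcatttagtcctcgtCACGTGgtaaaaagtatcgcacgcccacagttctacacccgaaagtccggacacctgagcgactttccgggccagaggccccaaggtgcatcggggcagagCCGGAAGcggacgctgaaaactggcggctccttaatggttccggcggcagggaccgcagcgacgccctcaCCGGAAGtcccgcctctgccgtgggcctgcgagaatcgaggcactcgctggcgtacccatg
LINC00261 (chr20:22578593-22578892, minus strand): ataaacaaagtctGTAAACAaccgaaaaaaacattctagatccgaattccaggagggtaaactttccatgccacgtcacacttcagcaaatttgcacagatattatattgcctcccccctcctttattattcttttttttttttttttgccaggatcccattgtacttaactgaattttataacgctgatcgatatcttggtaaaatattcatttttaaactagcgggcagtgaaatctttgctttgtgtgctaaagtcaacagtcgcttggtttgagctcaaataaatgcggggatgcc
LINC00263, now OLMALINC (chr10:100373326-100373625, plus strand): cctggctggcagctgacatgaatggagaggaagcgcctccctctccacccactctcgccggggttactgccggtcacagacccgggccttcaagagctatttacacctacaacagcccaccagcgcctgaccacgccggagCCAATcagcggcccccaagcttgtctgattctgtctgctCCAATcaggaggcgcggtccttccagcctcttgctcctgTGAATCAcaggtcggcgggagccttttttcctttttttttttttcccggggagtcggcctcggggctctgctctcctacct
LINC00116, now MTLN (chr2:110212498-110212797, minus strand): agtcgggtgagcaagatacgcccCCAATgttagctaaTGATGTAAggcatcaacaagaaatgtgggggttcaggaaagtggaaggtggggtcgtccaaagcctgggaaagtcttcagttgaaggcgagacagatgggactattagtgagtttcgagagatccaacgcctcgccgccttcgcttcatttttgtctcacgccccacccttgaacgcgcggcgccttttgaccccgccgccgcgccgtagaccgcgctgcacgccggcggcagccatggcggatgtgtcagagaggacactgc

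A promoter was found for 12 of the 13 expressed members, where that of LINC00341 is the start of SYNE3, which need not be its own. Searched on both strands were 9 motifs, none of which contains another. TGANTCA, with any base at N, is looser than the core of AP-1 sites (TGACTCA or TGAGTCA). This looser pattern was present in 3 of the 12 (LINC00339, LINC00152 and LINC00263) and in 7.71% of all 35116 promoters. LINC00339 and LINC00152 each held 2 matches. Both in LINC00152 were TGAGTCA, LINC00339 held TGACTCA and TGAATCA, and the match in LINC00263 was TGAATCA, which is not that core. The only TGATGNAA, the amino acid response element read by ATF4 with a C/EBP partner, was in LINC00116, against 3.62% of all promoters. TGTTTAC, a forkhead site, was found in LINC00261 (3.42% of all promoters), CACGTG, an E-box, in LINC00493 (7.26%) and TGACGTCA, a cyclic AMP response element, in LINC00265 (1.85%). CCGGAAG, an ETS site, was in 4 of the 12 (10.3% of all promoters) and CCAAT in 6 (34.6%). The LXR element was searched only as an exact pair of AGGTCA half-sites 4 bases apart (0.0199% of all promoters). The sterol regulatory element was searched as ATCAC and CCAC around any 1 base (0.154%). Neither was matched in any of the 12 windows. Both strings are so rare that their absence from 12 windows shows nothing about the members. The LINC00261 window had 37.0% GC and the other 5 printed windows had 49.7% to 60.0%, against a median of 58.7% over all promoters. These matches describe letters in a window and are not binding sites.

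A gene counted as expressed in a line at a mean level of at least 1 (log2 CPM, or 2 CPM) over the 3 tables of that line. By this rule 13 of the 83 members were expressed in Hep3B (15.7%, against 57.5% of all genes) and 10 in Huh7 (12.05%, against 57.0% of all genes). The 10 Huh7 genes were all among the 13 of Hep3B, and LINC00341, LINC00338 and LINC00265 were expressed in Hep3B only by this minimum. The lowest members inside the minimum had mean levels of 1.04 (LINC00263, Hep3B) and 1.36 (LINC00476, Huh7), and the highest outside had 0.85 (LINC00478, Hep3B) and 0.99 (LINC00189, Huh7). The other 70 were under the minimum in both lines. All 13 expressed members had a nonzero count in each of the 70 libraries, as had 19 members in all, while the median member was nonzero in 35. In bulk RNA, fewer cells with a transcript and less of it per cell cannot be told apart. The lines carried hepatocyte markers, with 8 of 8 expressed in each (6.12 to 13.1 log2 CPM in Hep3B and 6.30 to 13.1 in Huh7). PTPRC (leukocyte; -2.07 in Hep3B and -1.25 in Huh7) and PECAM1 (endothelium; -1.72 and -0.49) were under the minimum, the cholangiocyte keratin KRT19 was at 7.51 and 7.10, and the fibroblast collagen COL1A1 was at -0.42 and 3.89.

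The single-drug labels of Huh7 were at odds with genes known to follow each drug. ABCG1, a sterol exporter and LXR target, had a log2 fold change of 5.99 with GW3965 and 0.59 with sorafenib in Hep3B, but 0.75 in the Huh7 arm labelled GW3965 and 3.82 in the Huh7 arm labelled sorafenib, in the authors' deposited tables. DUSP6, a phosphatase gene that follows RAF and ERK signalling, had -2.40 with sorafenib and 0.33 with GW3965 in Hep3B, but -0.02 in the Huh7 arm labelled sorafenib and -1.70 in that labelled GW3965, in the authors' deposited tables. SREBF1, an LXR target (1.63 labelled sorafenib, -0.07 labelled GW3965), and the stress genes DDIT3 (0.30 and 1.35) and ATF3 (0.66 and 1.20) stood the same way round in Huh7 in the authors' deposited tables. The libraries are therefore called labelled GW3965 and labelled sorafenib throughout, and no single-drug direction in Huh7 below is tied to a drug.

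LINC00261 was the most abundant member in CPM and LINC00493 the most abundant per length. The level of a group was computed from a table's mean and fold change, each drug group from its own table and DMSO as a mean of 3. Implied DMSO levels were offset between tables by up to 0.082 in Hep3B and 0.042 in Huh7 (log2). Close levels of 2 drug groups are therefore not ranked by these values. For LINC00261 in Hep3B, the fold changes over DMSO were -0.22 with GW3965 and -0.26 with sorafenib, the reverse order of the levels below. LINC00261 stood at 64.7 CPM with both drugs, 100.01 with sorafenib, 97.3 with GW3965 and 117 with DMSO in Hep3B. In Huh7 it stood at 107 CPM with both drugs, 135 in the group labelled sorafenib, 173 in that labelled GW3965 and 136 with DMSO. In both lines the group with both drugs was the lowest of the 4. LINC00493 stood at 26.5 CPM with both drugs, 26.01 with sorafenib, 15.1 with GW3965 and 16.5 with DMSO in Hep3B, against 23.3, 16.4 (labelled sorafenib), 18.5 (labelled GW3965) and 17.4 CPM in Huh7. Hep3B thus had 2 groups near 26 CPM and 2 near 16, while in Huh7 only the group with both drugs stood clear of DMSO. LINC00094 ran from 23.6 to 27.7 CPM in Hep3B and from 33.7 to 34.7 in Huh7, and every other expressed member was under 10 CPM in all groups of both lines. Divided by transcript length, for the 12 members with a GENCODE length, the DMSO levels of Hep3B and Huh7 were 32.7 and 34.5 CPM per kilobase for LINC00493, 23.9 and 27.7 for LINC00261 and 5.81 and 13.0 for LINC00152, with LINC00265 lowest at 0.769 and 0.4996.

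**Figure D1:**
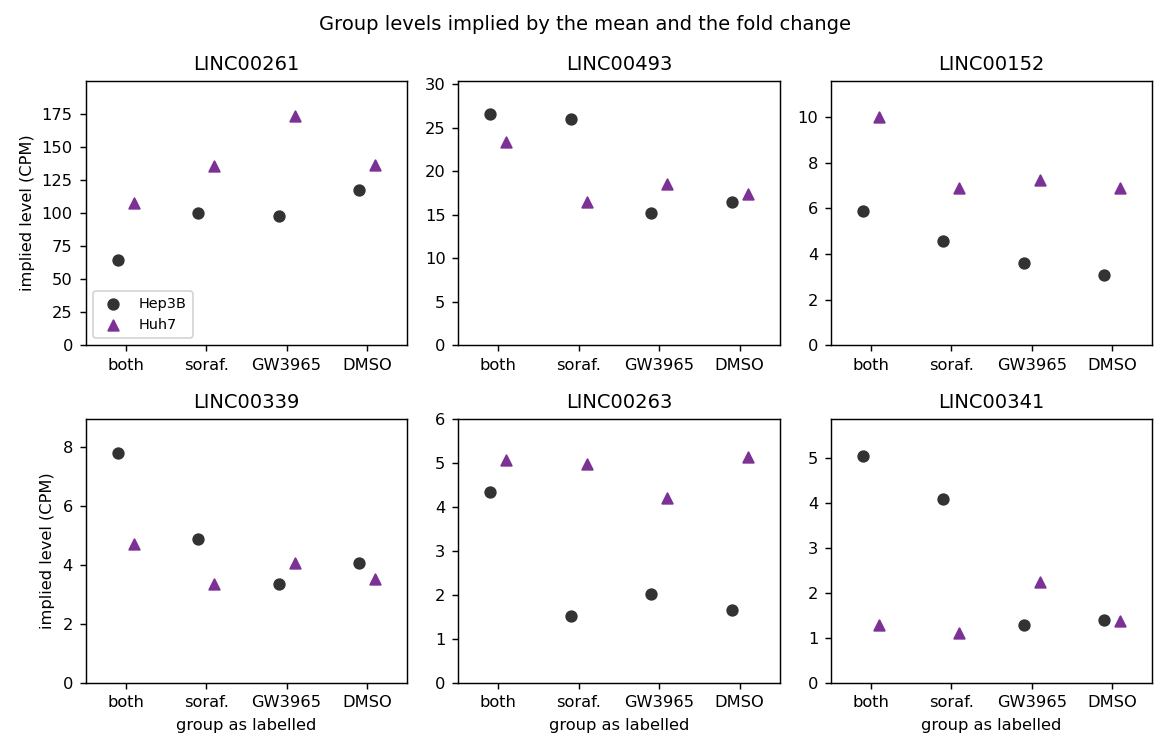
Level in CPM (vertical axis, from 0) of 6 LINC genes in the 4 groups of each line as labelled, with circles for Hep3B and triangles for Huh7, and with the range of the 3 DMSO estimates as a line where it is longer than the symbol. LINC00261 is lowest with both drugs in both lines (64.7 CPM in Hep3B and 107 in Huh7), whereas LINC00341 with both drugs is at 5.06 CPM in Hep3B and 1.28 in Huh7, against 1.40 and 1.37 with DMSO.

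DMSO levels of the lines were set side by side without a test, since no deposited comparison sets the lines against each other. The sources used here do not say how levels were scaled between comparisons. LINC00338, LINC00294 and LINC00467 were higher in Hep3B, with differences between Hep3B and Huh7 of 1.33, 1.08 and 1.05 (log2). LINC00263, LINC00116 and LINC00152 were lower in Hep3B, with -1.64, -1.47 and -1.16. The other 7 members lay within 0.63 of 0. LINC00263 and LINC00116 passed the Hep3B minimum only through their drug groups, so a low DMSO level beside a higher level with drug was fixed by the minimum for them. With both drugs LINC00263 stood at 4.34 CPM in Hep3B and 5.08 in Huh7, and LINC00152 stood at 5.90 CPM in Hep3B and 9.99 in Huh7.

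Both drugs together gave the most calls among the LINC genes in Hep3B. At an FDR under 0.05, the authors' deposited table called 8 of the 13 expressed members, of which 7 were higher and 1 was lower (61.5%, against 71.9% of all expressed genes). The share is no higher than that background. The median log2 fold change of the 13 was 0.54 and that of all expressed genes was -0.00, both from the authors' deposited table. LINC00263, LINC00341 and LINC00116 stood under 2 CPM with DMSO (1.65, 1.40 and 1.91) and passed the minimum through their drug groups, so the count and the median support nothing about the members as a set. Among the 10 members at 2 CPM or more with DMSO, 5 were called, 4 higher and 1 lower (50.0%), against 71.8% of genes selected in the same way. Without the 4 members that are now protein-coding genes, 5 calls were left.

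The highest fold change among the 13 expressed members was that of LINC00341, at 5.06 CPM with both drugs and 1.40 with DMSO (log2 fold change 1.83, approximate SE 0.158, edgeR FDR = 8.34e-30 in the authors' deposited table). Reads here may belong to SYNE3, within which the transcript lies, and transcripts of the same locus cannot be told apart by these counts. LINC00263 followed, at 4.34 CPM with both drugs and 1.65 with DMSO (1.39, SE 0.179, edgeR FDR = 1.34e-14 in the authors' deposited table). Of the 13 expressed members, these were the only ones that changed 2-fold or more. LINC00152 rose by 0.91 (SE 0.139, edgeR FDR = 6.32e-14) and LINC00339 by 0.91 (SE 0.157, edgeR FDR = 2.88e-08) in the authors' deposited table. The genes of small mitochondrial proteins also rose, LINC00116 by 0.82 (SE 0.193, edgeR FDR = 6.51e-05) and LINC00493 by 0.66 (SE 0.111, edgeR FDR = 1.48e-08) in the authors' deposited table. LINC00338, the small nucleolar RNA host, rose by 0.54 (SE 0.151, edgeR FDR = 0.000853) in the authors' deposited table. LINC00261 was the only expressed member that fell, by 0.89 (SE 0.0812, edgeR FDR = 3.25e-29 in the authors' deposited table). The 5 members not called had log2 fold changes between -0.17 (LINC00094, edgeR FDR = 0.059) and 0.27 (LINC00265) in the authors' deposited table.

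Sorafenib alone changed fewer members in Hep3B. There, the authors' deposited table called 5 of 13, with 4 of them higher and 1 lower (38.5%, against 51.3% of all expressed genes). The medians were 0.23 for the members and -0.03 for all expressed genes. LINC00263, LINC00341 and LINC00116 passed the minimum only through their drug groups, so this count and median support nothing about the members as a set. Among the 10 members at 2 CPM or more with DMSO, 3 were called, 2 higher and 1 lower (30.0%), against 51.0% of genes selected in the same way. LINC00341 rose by 1.56 (SE 0.183, edgeR FDR = 6.68e-18) and LINC00116 by 0.75 (SE 0.199, edgeR FDR = 0.000791) in the authors' deposited table. LINC00493 rose by 0.64 (SE 0.130, edgeR FDR = 7.37e-06) and LINC00152 by 0.54 (SE 0.146, edgeR FDR = 0.000835), while LINC00261 fell by 0.26 (SE 0.105, edgeR FDR = 0.00952), all in the authors' deposited table. With LINC00341, LINC00116 and LINC00493 set aside as protein-coding genes of the present annotation, 2 calls were left, LINC00152 and LINC00261. LINC00263 and LINC00339, which rose with both drugs, had -0.17 and 0.24 with sorafenib and were not called in the authors' deposited table.

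GW3965 alone changed 1 member in Hep3B. LINC00261 fell by 0.22 (SE 0.0546, edgeR FDR = 6.26e-05), the 1 call among 13 members in the authors' deposited table (7.69%, against 11.1% of all expressed genes). At an unadjusted p under 0.05 there were 5 of 13 members, against 24.9% of all expressed genes. The highest value was that of LINC00263 at 0.36 and the median was -0.07, against 0.00 for all expressed genes, in the authors' deposited table. LINC00152 had 0.28 with GW3965 in the authors' deposited table, also not called. The 3 Hep3B tables share their DMSO libraries, so the same direction of LINC00261 in all of them (in the authors' deposited tables -0.89 with both drugs, -0.26 with sorafenib and -0.22 with GW3965) is not evidence from separate controls.

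**Figure D2:**
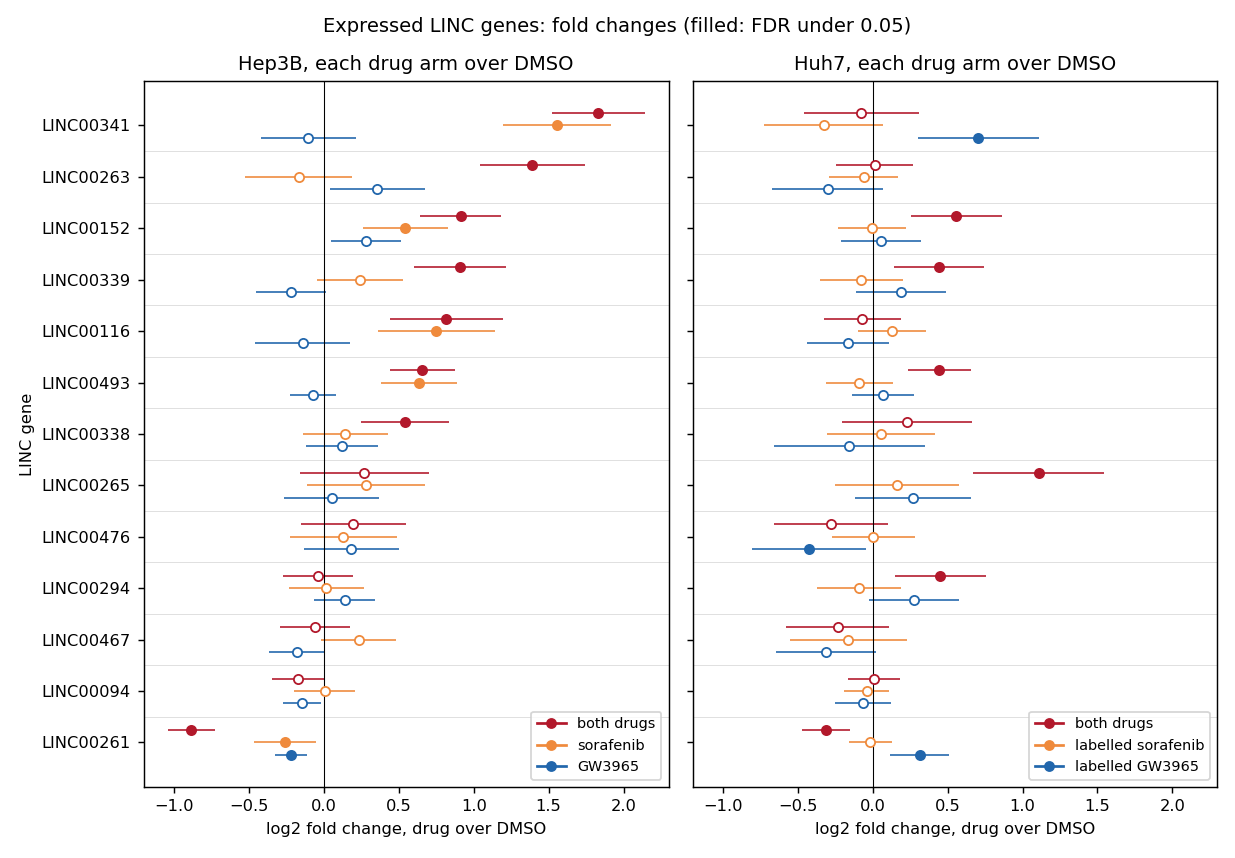
Log2 fold change over DMSO (horizontal axis) of the 13 expressed LINC genes (rows) in each drug arm, Hep3B left and Huh7 right, with bars for the approximate 95% interval and filled points at an FDR under 0.05, from the authors' deposited tables. In Hep3B the filled points lie right of 0 except those of LINC00261, and in Huh7 none of the points labelled sorafenib is filled.

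Whether the second drug added to sorafenib in Hep3B was tested as the difference of the fold changes, both drugs minus sorafenib, with an approximate 2-sided normal test adjusted by the Benjamini-Hochberg method over all genes tested. Of 14 members tested 4 differed, 3 higher and 1 lower with both drugs (31.1% of all genes differed). LINC00263 and LINC00340 reached the level needed for the test only through the group with both drugs, so the count supports nothing about the members. LINC00263 differed by 1.56 (SE 0.256, adjusted p = 6.72e-08), from fold changes of 1.39 with both drugs and -0.17 with sorafenib. LINC00339 differed by 0.67 (SE 0.215, adjusted p = 0.00934) and LINC00261 by -0.63 (SE 0.133, adjusted p = 4.63e-05). LINC00340, now CASC15, which lay under the minimum over the line, differed by 1.11 (SE 0.299, adjusted p = 0.00168), from 1.70 with both drugs and 0.59 with sorafenib in the authors' deposited tables. LINC00341, LINC00116 and LINC00493 differed by 0.28 (95% interval -0.20 to 0.75), 0.07 (-0.48 to 0.61) and 0.02 (-0.31 to 0.35) and were not called. LINC00152 differed by 0.37 (-0.03 to 0.76), also not called. The DMSO libraries are shared by both fold changes, an error that this test counts more than once.

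In Huh7, the authors' deposited table for both drugs called 5 of the 10 expressed members, with 4 of them higher and 1 lower (50.0%, against 61.4% of all expressed genes). The medians were 0.01 for the members and 0.06 for all expressed genes in the authors' deposited table, and no expressed member reached a 2-fold change. LINC00152 rose to 9.99 CPM with both drugs, against 6.89 with DMSO (0.56, SE 0.155, edgeR FDR = 0.00105 in the authors' deposited table). LINC00294 rose by 0.45 (SE 0.154, edgeR FDR = 0.00312), LINC00493 by 0.44 (SE 0.108, edgeR FDR = 0.000157) and LINC00339 by 0.44 (SE 0.154, edgeR FDR = 0.0023) in the authors' deposited table. LINC00261 fell by 0.31 (SE 0.0829, edgeR FDR = 8.66e-05 in the authors' deposited table). LINC00265, under the Huh7 minimum, rose to 3.20 CPM with both drugs, against 1.52 with DMSO (1.11, SE 0.224, edgeR FDR = 3.86e-06 in the authors' deposited table). LINC00263, LINC00116 and LINC00341, all higher with both drugs in Hep3B, had 0.01, -0.07 and -0.08 in the authors' deposited table for Huh7.

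For the Huh7 arm labelled GW3965, the authors' deposited table called 2 of 10 members, 1 higher and 1 lower (against 31.4% of all expressed genes), with medians of -0.00 for the members and -0.04 for all expressed genes. LINC00261 rose by 0.31 (SE 0.101, edgeR FDR = 0.000363) in the authors' deposited table, at 173 CPM in that arm and 136 with DMSO. LINC00476, now ERCC6L2-AS1, had -0.43 (SE 0.194, edgeR FDR = 0.0347) in the authors' deposited table, a call that is lost at an FDR of 0.01, while its other transcript had 0.06. LINC00341, under the minimum in Huh7, rose by 0.71 (SE 0.207, edgeR FDR = 0.00539) in the authors' deposited table. In the arm labelled sorafenib, 0 of 10 members were called by edgeR (3.31% of all expressed genes were). At an unadjusted p under 0.05 there were also 0 of 10, against 14.0% of all expressed genes. The fold changes of the members ran from -0.16 to 0.13 in the authors' deposited table. Both drugs minus the arm labelled GW3965 differed for 5 of 12 members tested, 4 higher and 1 lower (30.0% of all genes differed). LINC00265 and LINC00189 reached the level needed for the test only through the group with both drugs, so here too the count supports nothing about the members. LINC00261 differed by -0.63 (SE 0.131, adjusted p = 3.11e-05), with a fold change of -0.31 for both drugs and 0.31 for the arm labelled GW3965. The other differences were 0.84 for LINC00265 (adjusted p = 0.0207), 0.81 for LINC00189 (adjusted p = 0.0165), 0.50 for LINC00152 (adjusted p = 0.0493) and 0.38 for LINC00493 (adjusted p = 0.0436). These tests share DMSO libraries within Huh7.

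The response to both drugs was then compared between the lines, which have separate controls. Of the 10 members expressed in both lines, 4 were called in both of the authors' deposited tables, and all 4 went the same way: LINC00339, LINC00152 and LINC00493 rose and LINC00261 fell. None was called in opposite directions. Of all 10805 genes expressed in both lines, 47.6% were called in both tables, and 88.4% of these went the same way. For LINC00339, LINC00152 and LINC00493 the difference between Hep3B and Huh7 did not pass the test, at 0.47 (95% interval 0.04 to 0.90, adjusted p = 0.0718), 0.35 (-0.05 to 0.76, adjusted p = 0.156) and 0.21 (-0.09 to 0.52, adjusted p = 0.269). LINC00261 fell more in Hep3B, with a difference of -0.57 (SE 0.116, adjusted p = 6.62e-06). Of the 13 members tested 6 differed, 3 higher and 3 lower in Hep3B (44.0% of all genes differed). The other 5 were LINC00341 at 1.91 (SE 0.251, adjusted p = 1.05e-12), LINC00263 at 1.38 (SE 0.221, adjusted p = 8.59e-09), LINC00116 at 0.89 (SE 0.232, adjusted p = 0.000634), LINC00265 at -0.84 (SE 0.314, adjusted p = 0.02) and LINC00294 at -0.49 (SE 0.195, adjusted p = 0.0296). LINC00341, which stood under 2 CPM with DMSO in both lines, was tested only through its level with both drugs in Hep3B. LINC00265 and LINC00338 stood at 1.52 and 1.24 CPM with DMSO in Huh7. They too reached the level needed for the test only through their groups with both drugs. The count therefore supports nothing about the members.

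**Figure D3:**
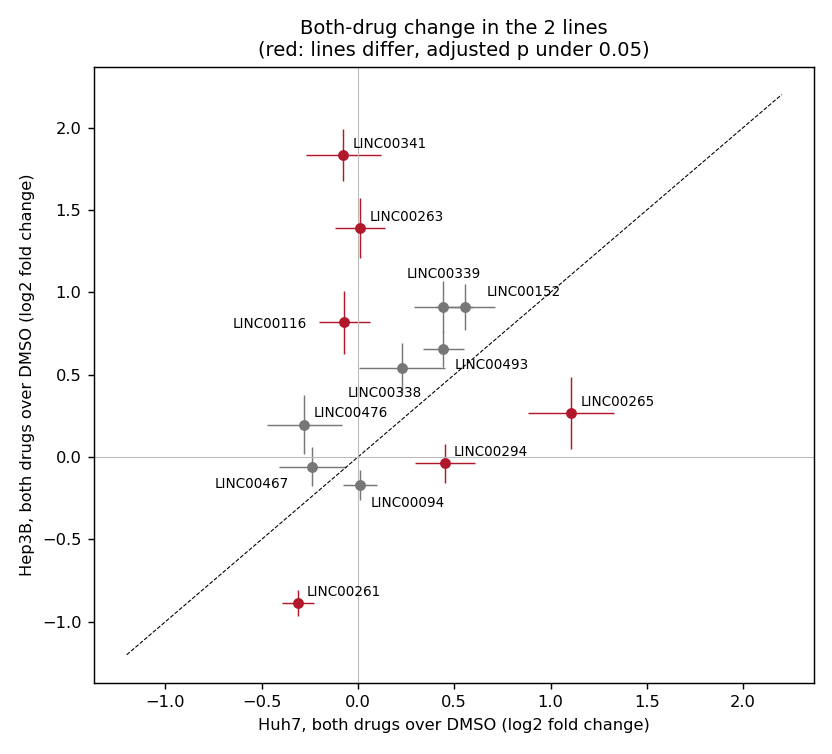
Log2 fold change with both drugs over DMSO in Hep3B (vertical) against Huh7 (horizontal) for the 13 expressed LINC genes, with bars of 1 approximate SE, a dashed line of equal change, and red where the difference between the lines passed an adjusted p of 0.05. LINC00341, LINC00263 and LINC00116 lie high above the line near 0 in Huh7, LINC00265 and LINC00294 lie below it, and LINC00261 is at -0.89 in Hep3B and -0.31 in Huh7.

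Over the 6 tables, 11 of the 13 expressed members were called in at least 1 of the authors' deposited tables, 6 in 2 or more, and 0 in all 6. Of all 12213 genes expressed in either line, 90.7% were called in at least 1 table, 70.4% in 2 or more and 0.540% in all 6. LINC00467 and LINC00094 were called in none, with fold changes between -0.32 and 0.23 for LINC00467 and between -0.17 and 0.01 for LINC00094 in the authors' deposited tables. Transcripts of 1 gene gave like values for LINC00339 and LINC00152 but not for LINC00476. LINC00339 had 0.91 and 0.87 from its 2 transcripts for Hep3B with both drugs in the authors' deposited table, and the 3 transcripts of LINC00152 all had 0.91 there. LINC00476 had -0.28 from its representative transcript and 0.20 from the other for Huh7 with both drugs. In the Huh7 arm labelled GW3965 these were -0.43 and 0.06, all in the authors' deposited tables. LINC00152 has a near-identical copy, MIR4435-2HG (LOC541471 in the tables), whose reads may be shared with it, so its values are uncertain. In the authors' deposited tables that copy had 0.79 (edgeR FDR = 8.07e-10) with both drugs and 0.38 (edgeR FDR = 0.0304) with sorafenib in Hep3B, and 0.28 with both drugs in Huh7 (edgeR FDR = 0.172).

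The protein-coding genes nearest to expressed members in the present annotation were read from the same tables. LINC00261 and FOXA2, the pioneer factor gene beside it, stood on opposite sides of 0 with both drugs: LINC00261 fell by 0.89 in Hep3B and 0.31 in Huh7, whereas FOXA2 rose by 0.59 (edgeR FDR = 2.9e-08) and 0.28 (edgeR FDR = 0.000115) in the authors' deposited tables. With single drugs in Hep3B, LINC00261 was called lower (-0.22 with GW3965 and -0.26 with sorafenib), whereas FOXA2 had -0.00 and 0.07 and was not called. In the Huh7 arm labelled GW3965 LINC00261 had 0.31, called, and FOXA2 had 0.14, not called. In the arm labelled sorafenib they had -0.02 and 0.07, neither called, all in the authors' deposited tables. LINC00263 and SCD, the stearoyl-CoA desaturase gene, both rose in Hep3B with both drugs (1.39 and 1.00 in the authors' deposited table). With single drugs in Hep3B, LINC00263 had 0.36 with GW3965 and -0.17 with sorafenib and was not called, whereas SCD rose by 1.97 and fell by 1.16, in the authors' deposited tables. In Huh7 with both drugs LINC00263 had 0.01, whereas SCD rose by 0.97 (edgeR FDR = 7.2e-16), in the authors' deposited table. LINC00265 had 0.27 in Hep3B, not called, and rose by 1.11 in Huh7, beside RALA, a small GTPase gene that rose in both lines (0.72 and 0.57), in the authors' deposited tables. LINC00294, called in Huh7, lies beside TCP11L1, which rose in both lines (0.42 and 0.65), and LINC00467, not called, beside the signalling adaptor gene TRAF5, which also rose in both (0.40 and 0.50), in the authors' deposited tables. LINC00339 rose by 0.91 in Hep3B beside CELA3A, a digestive elastase gene at under 1 CPM, which had -1.37 in the authors' deposited table. In Huh7 LINC00339 rose by 0.44 and CELA3A had 0.45, not called (edgeR FDR = 0.893), in the authors' deposited table. CELA3A had a nonzero count in only 32 of the 70 libraries.

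For 3 members the annotated neighbour overlaps, and no source used here says whether counting was by strand, so such pairs cannot be told apart. With both drugs, LINC00338 had 0.54 in Hep3B and 0.23 in Huh7, against 0.17 (edgeR FDR = 0.0699) and 0.34 (edgeR FDR = 0.00521) for SEC14L1, which overlaps it, in the authors' deposited tables. LINC00476 had 0.20 and -0.28, against -0.35 and 0.08 for ERCC6L2 (C9orf102 in the tables), a DNA repair helicase gene, in the authors' deposited tables. The other transcript of LINC00476 had 0.17 and 0.20 there, so its direction in Huh7 depends on the transcript. LINC00094 had -0.17 and 0.01, against -0.03 and 0.25 for BRD3, a bromodomain gene, in the authors' deposited tables. Among genes that lie apart, LINC00493 had 0.66 in Hep3B and 0.44 in Huh7, against 0.24 (edgeR FDR = 0.000872) and -0.10 for its neighbour SEC23B, in the authors' deposited tables. LINC00341 had 1.83 and -0.08, against 0.29 and -0.18 for GLRX5, the nearest coding gene other than SYNE3, in the authors' deposited tables.

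**Figure D4:**
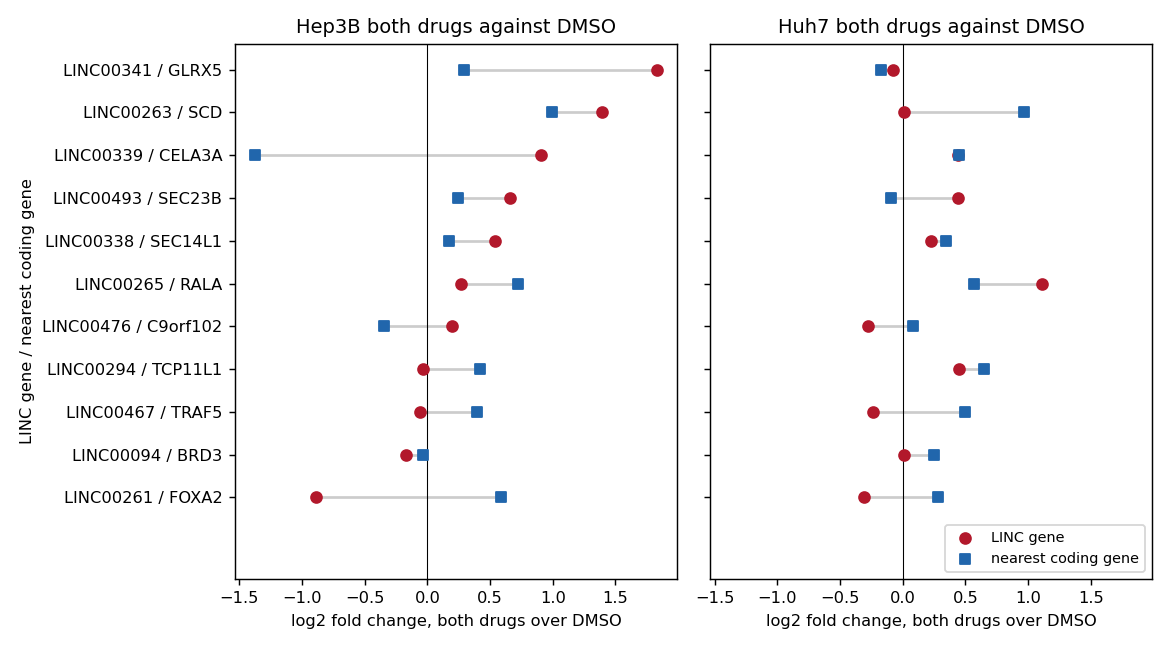
Log2 fold change with both drugs over DMSO (horizontal) of LINC genes (circles) and of the nearest protein-coding gene (squares), joined by a grey line, for Hep3B left and Huh7 right, from the authors' deposited tables. LINC00261 and FOXA2 lie on opposite sides of 0 in both panels (-0.89 and 0.59 in Hep3B, -0.31 and 0.28 in Huh7), and SCD lies near 1 in both panels while LINC00263 does so only in Hep3B (1.39 and 0.01).

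The 70 members under the minimum in both lines gave calls as well, 19 of them in at least 1 of the authors' deposited tables. That is 27.1% of the 70, against 27.1% of the 7877 genes of any kind under the minimum in both lines. With both drugs, 12 of 70 were called in Hep3B (5 higher and 7 lower, against 17.1% of such genes) and 10 of 70 in Huh7 (9 higher and 1 lower, against 13.1%) in the authors' deposited tables. Sorafenib gave 7 calls in Hep3B (5 higher and 2 lower, against 10.4%) and the Huh7 arm labelled GW3965 gave 5 (4 higher and 1 lower, against 4.74%). The other tables gave 0 calls by edgeR, where 0.787% of such genes were called for Hep3B with GW3965 and 0.292% for Huh7 labelled sorafenib. At the looser threshold of an unadjusted p under 0.05 there were 1 of 70 and 2 of 70 members. No share of all such genes is given at that threshold, so these counts support nothing about the members. The genes named next, other than LINC00340 and LINC00189, fall outside the rule for named genes and were chosen after their values were seen. LINC00346, now PRECSIT, had the largest fold change of any member, 3.42 with both drugs in Hep3B (SE 0.296, edgeR FDR = 1.57e-29), and 1.63 in Huh7 (SE 0.342, edgeR FDR = 1.98e-06) in the authors' deposited tables. LINC00471 (1.70 in Hep3B and 1.91 in Huh7) and LINC00174 (1.37 and 1.27) rose with both drugs in both lines in the authors' deposited tables. LINC00478, now the microRNA host gene MIR99AHG, fell in both, by 0.43 in Hep3B and 0.68 in Huh7, in the authors' deposited tables.

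Among the other low members, LINC00472 fell by 1.78, LINC00085 (now SPACA6) by 1.65 and LINC00167 (now PRDM10-DT) by 1.21 with both drugs in Hep3B in the authors' deposited table. Their mean levels there were only -1.17, -0.50 and -1.37 log2 CPM, with approximate SEs of 0.360, 0.272 and 0.380. LINC00189 rose by 1.35 in Huh7 with both drugs (SE 0.195, edgeR FDR = 1.68e-15) and by 0.54 in the arm labelled GW3965 in the authors' deposited tables. LINC00087 and LINC00086, symbols of near-identical copies whose reads may be shared, rose in Huh7 with both drugs by 1.06 and 1.42 and in the arm labelled GW3965 by 0.98 and 1.17 in the authors' deposited tables. LINC00324 fell by 0.66 with both drugs in Hep3B and rose by 0.81 in the Huh7 arm labelled GW3965 in the authors' deposited tables.

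Shares of called genes were last set beside those of other kinds of transcript. With both drugs in Hep3B, the authors' deposited table called 61.5% of the 13 LINC genes, against 73.5% of 34 antisense transcripts, 66.7% of 12 host genes of small RNAs, 66.4% of 500 other noncoding transcripts and 72.2% of 11002 protein-coding genes. In Huh7 with both drugs the shares were 50.0% of 10 LINC genes, 50.0% of 28 antisense transcripts, 83.3% of 12 host genes, 61.9% of 491 other noncoding transcripts and 61.4% of 10916 protein-coding genes in the authors' deposited table. The LINC share was not the highest in any of the 6 tables. A mean under 3 log2 CPM was found for 10 of the 13 members in Hep3B and 7 of the 10 in Huh7. With both drugs, 6 of these 10 members were called in Hep3B and 3 of these 7 in Huh7, against 69.5% and 58.3% of expressed genes in that range, in the authors' deposited tables. Of 12 expressed long noncoding RNAs with names of their own (such as NEAT1, GAS5 and TUG1), 8 were called with both drugs in Hep3B, 4 higher and 4 lower, and 5 in Huh7, all higher, in the authors' deposited tables. The differences between these shares were not tested.

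**Figure D5:**
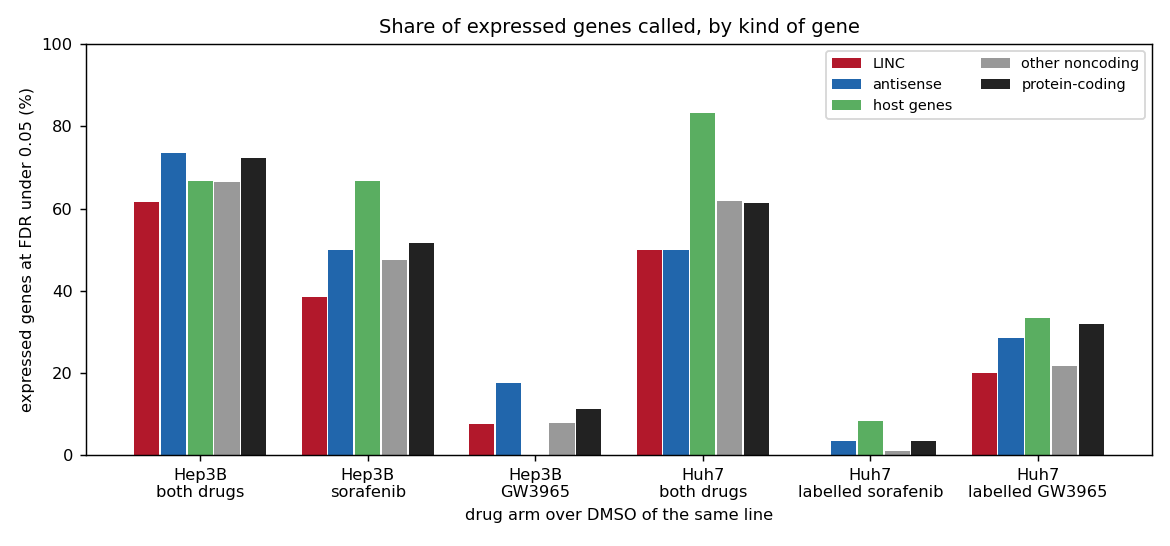
Share of expressed genes called at an FDR under 0.05 (vertical axis, percent, from 0) for 5 kinds of transcript in each drug arm against DMSO, from the authors' deposited tables. With both drugs the LINC bars stand at 61.5% in Hep3B and 50.0% in Huh7, against 72.2% and 61.4% for protein-coding genes.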

How the data were processed

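Poly-A RNA-seq of 70 libraries in 8 groups was read from the authors' 6 comparison tables. Per the file headers, the columns for the 32321 transcripts are a mean level (log2 CPM), the log2 fold change, and a p-value with its FDR as adjusted by the authors, with a flag for the representative transcript and a tally of the libraries in which the count was not zero. Per the submitters' processing notes, the tool was edgeR (version not stated) and the build hg19, or GRCh37. Aligner, counting and test settings: not given in the sources used here. The deposited fold change was read as drug over DMSO because the tables of a line then implied like DMSO levels. Each table's median was subtracted first, and the SD between tables was taken per expressed gene. The median of these SDs was 0.00292 (Hep3B) and 0.00513 (Huh7), against 0.264 and 0.209 when reversed (log2).

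From these columns the members were selected, called at the authors' FDR under 0.05, and given group levels and approximate SEs (fold change over the p-value's normal score, not below the median of 20 expression bins; the median where p exceeded 0.5). Differences of fold changes were tested by a 2-sided normal test over all genes, with Benjamini-Hochberg adjustment, in scipy 1.17.1. The test was tried on simulated fold changes for the contrast between the lines only, with independent errors. Contrasts within a line, which share DMSO libraries, were not simulated. The members, lists and contrasts were chosen with earlier results of these data known. The rule for named genes took the 5 highest and 5 lowest called members per comparison, 17 members named in every case (5 were found), the 3 largest called differences per contrast, genes that check the labels, and nearest coding neighbours, of which 1 is not reported here. RefSeq names matched 70 members by transcript, 4 by symbol and 7 by 1 older symbol; 2 older symbols point to several genes. The reference tables are on GRCh38.p14, another build than the files, so only promoter coordinates are given. Library depth is unknown, and the authors' p-values are the only measure of precision. Alternatives changed the FDR, the expression minimum, the transcript, the adjustment and the centring.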

Additional observations from a re-analysis of the deposited data

Results flagged for a closer look

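With both drugs, 6 of the 13 LINC genes tested differed between the lines by the approximate test of the difference (Hep3B minus Huh7, log2), against 44.0% of all genes. LINC00341 and LINC00265 were tested only through their groups with both drugs, so the count supports nothing about the members. LINC00341 differed by 1.91, with 1.83 in Hep3B and -0.08 in Huh7 in the authors' deposited tables. LINC00263 differed by 1.38 (1.39 in Hep3B and 0.01 in Huh7 in the authors' deposited tables) and LINC00116 by 0.89 (0.82 in Hep3B and -0.07 in Huh7 in the same authors' deposited tables). The DMSO levels of LINC00263 and LINC00116 also differed, at 1.65 and 1.91 CPM in Hep3B and 5.13 and 5.28 CPM in Huh7, and the part of these levels in the difference was not tested. LINC00265 differed by -0.84 (0.27 in Hep3B and 1.11 in Huh7), LINC00261 by -0.57 (-0.89 and -0.31) and LINC00294 by -0.49 (-0.04 and 0.45), from the authors' deposited tables.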

How the results depend on the processing

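No paired analysis was possible because the tables hold no values of single libraries, so neither a replicate block nor leaving out replicates was run. No direction reversed in any alternative. Counts of called members moved by over 1.5 times as follows. Except where stated, no share of all genes at the same setting is given beside a count, so these counts support nothing about the members as a set. At a mean of at least 2 log2 CPM, the counts were 2 for Hep3B with sorafenib (5 as reported), 3 with both drugs (8), 1 for Huh7 labelled GW3965 (2), 3 for Huh7 with both drugs (5), 2 for Hep3B minus Huh7 (6), 2 for Hep3B both drugs minus sorafenib (4) and 3 for Huh7 both drugs minus labelled GW3965 (5). With no minimum, over all 83 members, they were 12 for Hep3B with sorafenib, 20 with both drugs, 8 for Huh7 labelled GW3965 and 16 for Huh7 with both drugs. A DMSO level of at least 1 log2 CPM was an alternative chosen after seeing the data. It left 3 of 10 for Hep3B with sorafenib (51.0% of all genes selected in this way) and 5 of 10 with both drugs (71.8%). Without genes now annotated as protein-coding, 2 and 5 were left in these tables. At an FDR of 0.01, 1 was left for Huh7 labelled GW3965, and at an adjusted p of 0.01 also 1 for Huh7 both drugs minus labelled GW3965. Bonferroni adjustment left 3 for Hep3B minus Huh7, 2 for Hep3B both drugs minus sorafenib and 1 for Huh7 both drugs minus labelled GW3965, and subtracting the median difference left 2 in the last. The stricter settings call or test fewer genes by construction, and the cause of the last change was not tested. Of 164 results for named genes, 15 lost their call at an FDR of 0.01, and 1 (LINC00085, Hep3B with sorafenib) lost it when adjusted over representative transcripts only. Subtracting each table's median changed no call of a named gene; that median over all genes was 0.16 for Huh7 with both drugs and within 0.1 of 0 elsewhere.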
